A study of Mus musculus with 10 samples.

Results

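The mRNAs of 9 RNA-binding proteins that control translation and mRNA stability in stem cells were followed in RNA pulled down with MEX3A: the Musashi mRNAs Msi1 and Msi2, the quaking mRNA Qk, the Pumilio mRNA Pum2, the cytoplasmic polyadenylation element binding protein mRNAs Cpeb2, Cpeb3 and Cpeb4, the CELF mRNA Celf1 and the ELAV-like mRNA Elavl1. They were chosen by gene symbol and not by a cut on their values, though with earlier results of these data known. All 9 were among the 15899 genes of the matrix, from which the authors had removed genes with low counts. Adult neural stem cell (NSC) cultures from the brain subependymal zone of mice, labelled 10 weeks old, were grown as neurospheres with EGF and FGF. Cultures homozygous for a FLAG tag at the C-terminus of endogenous MEX3A (Mex3a FLAG/FLAG, called FLAG) were compared with untagged wild-type cultures of the same background (WT), in which the anti-FLAG antibody gives the nonspecific background. The RNA-immunoprecipitation (RIP) was done on 4 libraries after formaldehyde crosslinking (2 FLAG, 2 WT) and on 6 libraries in native conditions (3 FLAG, 3 WT). The methods call the 2 or 3 replicates of a genotype biological replicates, and the number of mice behind them is not given in the sources used here. Crosslinked and native libraries of a genotype share numbers in the labels and may come from 1 culture, while tests over all libraries treat the 10 as independent. Such same-numbered libraries deviated from their group means with correlations of 0.15 to 0.39, and with genotype and number as a random block 0 members were called in any comparison that used both protocols. No input library was analysed, so a value is a level in the pulled-down RNA and not in the cell.

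MEX3A is an RNA-binding protein with KH domains that acts on the 3′ untranslated region (UTR) of its mRNAs. The 9 regulators also act mainly through 3′ UTRs. Musashi proteins bind short elements around UAG and hold back translation of mRNAs such as Numb in neural progenitors. Quaking binds an ACUAAC element and is best known in glia, where it handles myelin mRNAs. Pumilio proteins bind a UGUA element and recruit deadenylases, and CELF1 promotes decay of mRNAs with GU-rich elements. ELAVL1 (HuR) stabilizes mRNAs with AU-rich elements, and CPEB proteins bind a U-rich element near the poly(A) signal and control the length of the tail and thereby translation. Many such proteins bind mRNAs of other RNA-binding proteins, and the comparison asks whether their own mRNAs were pulled down with MEX3A. In the study's mass spectrometry of MEX3A immunoprecipitates, ELAVL1 and quaking were among the co-precipitated proteins.

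The values are log2 values as deposited. Their depth is unknown, since the values of every library, raised from the log2 scale, add up to nearly the same total. Ties at the lowest value of a library were frequent in native FLAG replicates 1 (329 genes) and 3 (178 genes) and rare elsewhere (up to 3 genes). The cultures held the neural stem and progenitor markers, with a mean log2 value of 7.58 for Nes, 10.46 for Egfr and 8.48 for Slc1a3. Of the markers of other cells, Aif1 and Tmem119 (microglia), Cldn5 and Cdh5 (endothelium) and Mbp, Mog and Mag (oligodendrocytes) were not among the 15899 genes. The summed linear level of the 4 mature neuron markers was lower in FLAG than in WT, at 14.5 to 29.3 against 34.6 to 39.2 in the crosslinked libraries and 15.0 to 23.1 against 36.3 to 46.6 in the native ones, and its part in the results was not tested. Rbfox3 weighs most in this sum, with a mean log2 value of 3.87 beside 2.52 for Camk2a, 2.07 for Syt1 and 1.24 for Snap25. With crosslinking, FLAG and WT overlapped for Camk2a (3.02 and 1.47 against 2.37 and 3.19) and Syt1 (2.21 and 1.48 against 2.25 and 2.07). Snap25 was at 1.74 and 0.46 against 1.74 and 1.89 there.

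The 9 mRNAs were well represented in the background and in the FLAG libraries alike. Msi2 and Qk were among the most abundant RNAs of the matrix, with mean log2 values over the 10 libraries of 10.80 and 10.33. Only 0.2% of all genes had a higher mean than Msi2 and 0.3% a higher mean than Qk. Celf1 (7.22), Pum2 (7.18) and Cpeb4 (6.93) followed, then Elavl1 (5.73), Cpeb3 (5.41) and Cpeb2 (4.70). Msi1 was the lowest at 3.78, still above the median of all deposited values, 2.89. The paralogues Msi1 and Msi2 thus lay at opposite ends of the set.

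Since these genes differ in length, the log2 value was also taken per kb of merged exons. On this per-kb scale the order was Msi2 (7.42), Qk (6.50), Pum2 (4.32), Cpeb4 (4.26), Celf1 (4.14), Cpeb3 (2.52), Elavl1 (2.35), Cpeb2 (1.74) and Msi1 (1.24). The ranges over the 10 libraries did not overlap between Msi2 and Qk, between Qk and Pum2, or between Celf1 and Cpeb3. For Qk, however, the annotated exons run past the gene given in the matrix, and with the exons inside that gene alone its range was 6.70 to 7.42, which overlaps the 6.98 to 7.92 of Msi2, so these 2 could not be ordered either. The other 5 neighbouring pairs overlapped, so that Pum2, Cpeb4 and Celf1 could not be ordered, nor could Cpeb3, Elavl1, Cpeb2 and Msi1 from one neighbour to the next. With the length of the longest transcript in place of merged exons, Elavl1 (3.20) came above Cpeb3 (2.85) and Msi1 (2.13) above Cpeb2 (1.89). On GRCm38 as given in the matrix, the Musashi genes lie at chr5:115429599-115455698 (Msi1) and chr11:88339382-88718513 (Msi2), Qk at chr17:10206471-10319361, Pum2 at chr12:8674134-8752581, Celf1 at chr2:90940382-91019497 and Elavl1 at chr8:4285382-4325413. The CPEB genes lie at chr5:43233170-43289724 (Cpeb2), chr19:37021291-37208601 (Cpeb3) and chr11:31872211-31935634 (Cpeb4). Both leading genes are long, with 379.1 kb of genomic span for Msi2 and 112.9 kb for Qk. Counts per gene do not separate spliced from unspliced RNA.

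The levels also moved little between libraries. The standard deviation (SD) over the 10 libraries lay below the median gene's 0.40 for all 9 mRNAs. Celf1 was the steadiest, with log2 values from 7.11 to 7.43 (SD 0.09), and 95.5% of the 532 genes within 0.5 log2 units of its mean level had a larger SD. Cpeb2 was the most variable, from 4.27 to 5.57 (SD 0.38), and 32.4% of the 1922 genes near its level had a larger SD. Cpeb4, with an SD of 0.28 and 35.4% of 655 such genes more variable, was next to it in this respect.

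**Figure D1:**
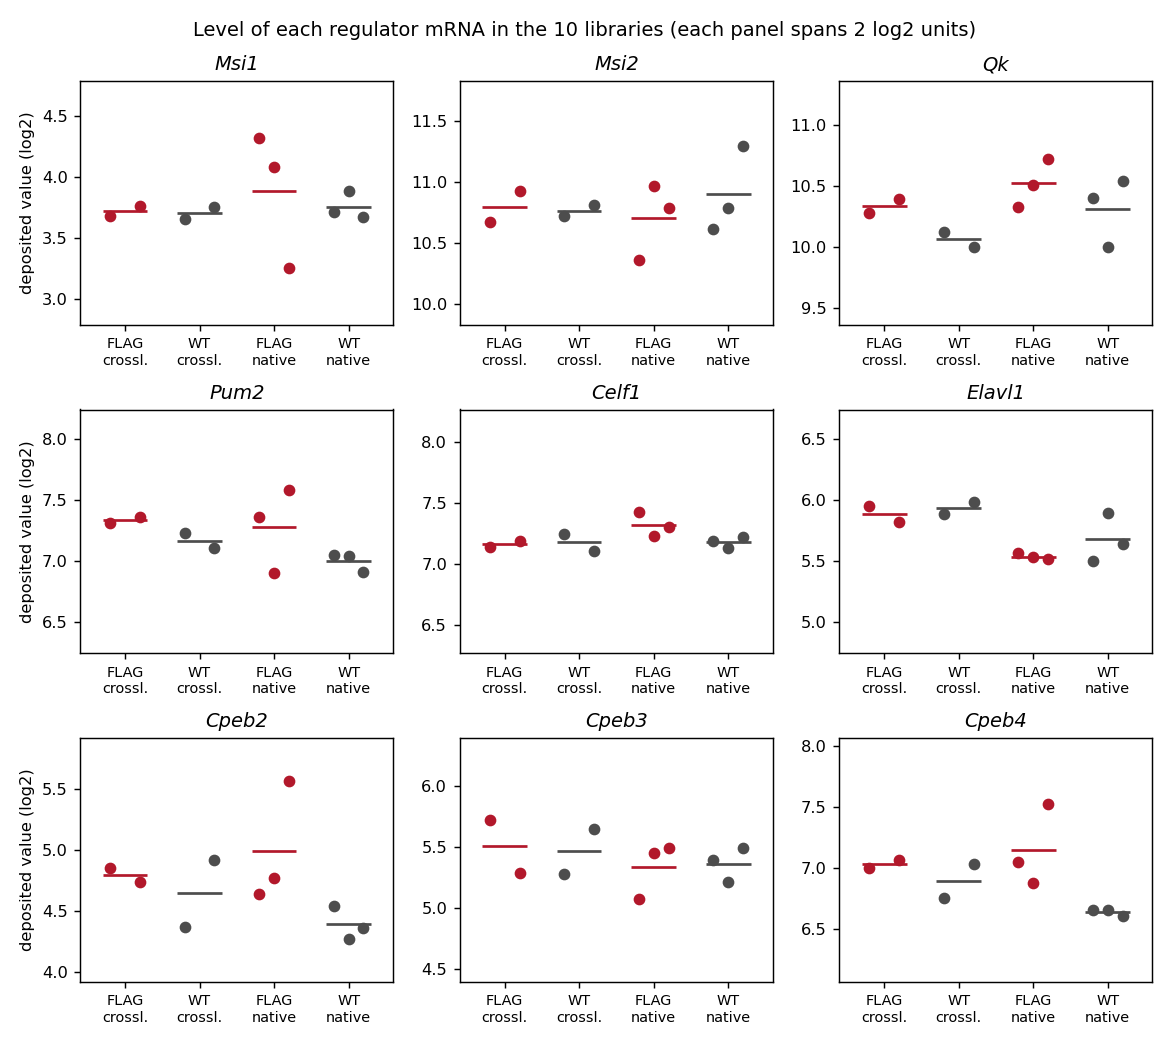
Deposited log2 value of each of the 9 mRNAs in every library, by group (x axis; red, FLAG; grey, WT; points, libraries; bars, group means; every panel spans the same height on the y axis, in log2 units). FLAG and WT points overlap in most panels, and the 3 native FLAG libraries lie above the 3 native WT libraries for Cpeb2, Cpeb4 and Celf1.

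The Musashi mRNAs did not differ between FLAG and WT beyond the spread of the libraries. Msi1 had log2 values of 3.68 and 3.76 in the crosslinked FLAG libraries against 3.65 and 3.75 in crosslinked WT, and 4.32, 4.08 and 3.25 in native FLAG against 3.71, 3.88 and 3.67 in native WT. Native FLAG replicates 1 and 2 were above, and replicate 3 below, all native WT libraries. Msi2 had 10.67 and 10.93 against 10.72 and 10.81 with crosslinking and 10.36, 10.97 and 10.79 against 10.62, 10.79 and 11.30 in native conditions, so the groups overlapped in both protocols. The log2 fold change of FLAG over WT across all libraries was 0.09 for Msi1 (95% interval -0.32 to 0.49) and -0.10 for Msi2 (-0.45 to 0.25), and both intervals lie within the 0.58 that the study took as the smallest enrichment. In native conditions alone the intervals were wider, from -0.53 to 0.79 for Msi1 and from -0.72 to 0.33 for Msi2, and reach past it.

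Qk, whose protein came down with MEX3A, had log2 values of 10.28 and 10.39 in crosslinked FLAG against 10.12 and 10.00 in crosslinked WT. Both FLAG libraries were above both WT libraries there. In native conditions the values were 10.33, 10.51 and 10.72 against 10.40, 10.00 and 10.54, which overlap. The log2 fold change was 0.27 ± 0.12 (SE) with crosslinking (limma with Benjamini-Hochberg adjustment over all genes, adjusted p = 0.687) and 0.23 ± 0.12 over all libraries (adjusted p = 0.284).

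Pum2 was also separated with crosslinking alone. Its log2 values were 7.31 and 7.36 in crosslinked FLAG against 7.23 and 7.10 in WT, and 7.36, 6.90 and 7.58 in native FLAG against 7.05, 7.04 and 6.91 in WT. The crosslinked groups did not overlap, and in native conditions FLAG replicate 2 was the lowest of the 6 libraries. The log2 fold change over all libraries was 0.24 ± 0.13 (limma, adjusted p = 0.289), and the native value of 0.28 ran from 0.13 to 0.47 when each library was left out in turn. Without both FLAG native replicates 1 and 3, the libraries with many tied low values, replicate 2 is the single native FLAG library left, and its difference from WT was -0.10, a value with no replicate check.

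Celf1 and Elavl1 stayed close to the background. Celf1 had 7.14 and 7.19 in crosslinked FLAG against 7.25 and 7.11 in WT, and 7.43, 7.23 and 7.31 in native FLAG against 7.19, 7.13 and 7.22 in WT. The native groups just missed each other, by 0.01 log2 units between 7.23 and 7.22, and the log2 fold change over all libraries was 0.08 (95% interval -0.11 to 0.27). Elavl1, the other regulator whose protein came down with MEX3A, had 5.95 and 5.82 against 5.88 and 5.98 with crosslinking and 5.56, 5.53 and 5.51 against 5.50, 5.89 and 5.64 in native conditions. FLAG and WT overlapped in both protocols and the log2 fold change over all libraries was -0.10 (95% interval -0.32 to 0.11).

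In native libraries and over all libraries Cpeb2 and Cpeb4 gave the largest differences of the set. Cpeb2 had log2 values of 4.85 and 4.74 in crosslinked FLAG against 4.37 and 4.92 in WT, and 4.64, 4.77 and 5.57 in native FLAG against 4.54, 4.27 and 4.36 in WT. In native conditions every FLAG library was above every WT library, with FLAG replicate 3 far above the others, and with crosslinking the groups overlapped. The native log2 fold change was 0.60 ± 0.26 (1.52-fold; unadjusted p = 0.0493 and adjusted p = 0.298 by limma).

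Cpeb4 had 7.00 and 7.07 in crosslinked FLAG against 6.76 and 7.04 in WT, and 7.05, 6.88 and 7.53 in native FLAG against 6.66, 6.66 and 6.61 in WT. The native WT libraries were nearly equal and all 3 native FLAG libraries lay above them, again with replicate 3 the highest. The native log2 fold change was 0.51 ± 0.19 (1.42-fold; limma, unadjusted p = 0.0280, adjusted p = 0.273) and the value over all libraries was 0.36 ± 0.14 (unadjusted p = 0.0236, adjusted p = 0.188).

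Cpeb3, by contrast, had 5.72 and 5.29 against 5.28 and 5.65 with crosslinking and 5.07, 5.45 and 5.49 against 5.39, 5.21 and 5.49 in native conditions. The groups overlapped in both protocols, and the log2 fold change over all libraries was 0.00 ± 0.13.

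No member of the set was called in any comparison at an adjusted p under 0.05 with a log2 fold change beyond 0.58 in either direction. Of all genes, 0% were called with crosslinking, 0.107% in native conditions and 0.497% over all libraries. The 17 native calls behind these shares became 0 without WT native replicate 1 or 3 and 3160 without FLAG native replicate 2. The 79 over all libraries became 13 without WT native replicate 1 and 702 without FLAG native replicate 2. With every library kept, 0 genes were called higher in FLAG within either protocol, as all 17 native calls were lower. Over all libraries 42 genes were called higher and 37 lower. The study names Sox2 and Sox9 among the mRNAs bound by MEX3A. Neither was called here in any comparison, with native log2 fold changes of 1.14 and 2.34 (limma, adjusted p = 0.232 for both). The lack of a call for the 9 mRNAs therefore does not show that they were unbound. At an unadjusted p under 0.05, 0 members were higher in FLAG with crosslinking, 2 (Cpeb2 and Cpeb4) in native conditions and 1 (Cpeb4) over all libraries, and 0 were lower. Of all genes, 5.48%, 8.38% and 11.2% were higher at that threshold in the 3 comparisons. In crosslinked libraries 2 of the 9 mRNAs (Qk and Pum2) had every FLAG library above every WT library, where 19.1% of all genes did, and 3 (Cpeb2, Cpeb4 and Celf1) did so in native conditions, where 8.62% of all genes did. None of the 9 had every FLAG library below every WT library in either protocol, against 19.9% of all genes with crosslinking and 10.8% in native conditions. No member separated the groups in both protocols, where 9.31% of all genes did so in the same direction. The median log2 fold change of the 9 mRNAs was 0.04, 0.14 and 0.09 in the 3 comparisons, beside -0.02, -0.04 and -0.03 over all genes.

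**Figure D2:**
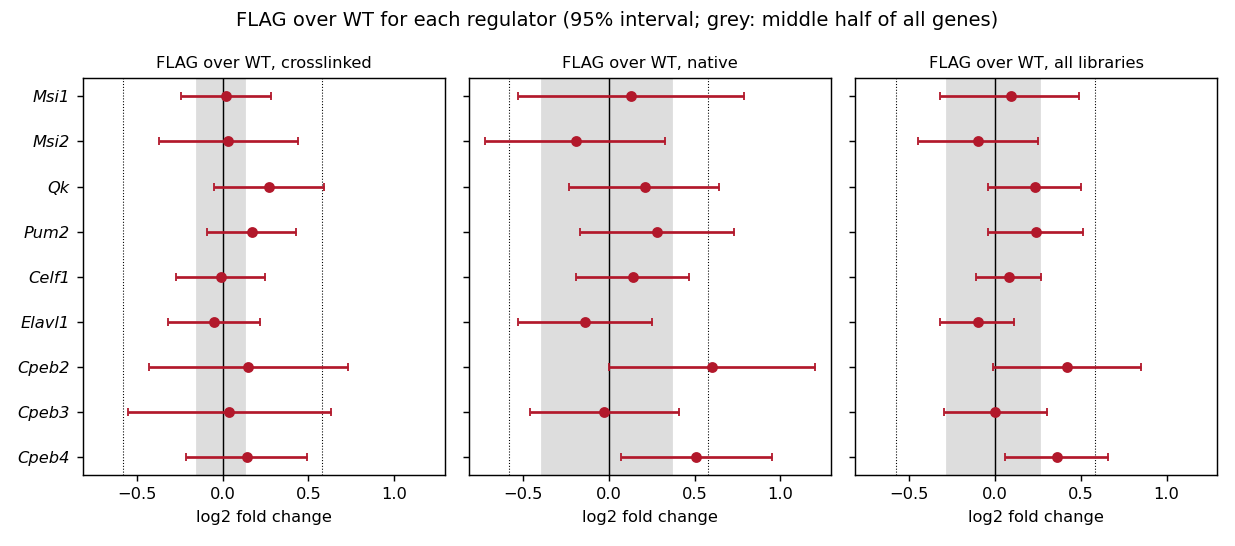
Log2 fold change of FLAG over WT for each mRNA (points; bars, 95% intervals from limma) in the crosslinked, native and all libraries, with dotted lines at 0.58 in either direction and the middle 50% of all genes in grey. All crosslinked intervals include 0, and Cpeb2 and Cpeb4 lie farthest to the right in native conditions, at 0.60 and 0.51.

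The native values of Cpeb2 and Cpeb4 varied with single libraries but kept their sign without each. Without FLAG native replicate 3 the native log2 fold change was at its lowest, 0.32 for Cpeb2 and 0.32 for Cpeb4. Without FLAG native replicates 1 and 3 it was 0.38 and 0.24, values with no replicate check since 1 native FLAG library remains. In the other direction, without FLAG native replicate 2 it was 0.71 (adjusted p = 0.0922) for Cpeb2 and 0.65 (adjusted p = 0.0316) for Cpeb4, which was then called, and with array weights both were called (0.79 and 0.68, adjusted p = 0.0334 and 0.0180). These fits called many more genes of every kind, with 19.9% of all genes called without FLAG native replicate 2 and 22.5% with array weights. Over the alternatives tried, the adjusted p in native conditions ran from 0.0334 to 1 for Cpeb2 and from 0.0180 to 1 for Cpeb4. Pum2 was at 0.47 (adjusted p = 0.0439) without FLAG native replicate 2, below the fold minimum. Over all libraries, array weights gave 0.35 for Cpeb2 (adjusted p = 0.00731), 0.29 for Cpeb4 (0.0026) and 0.24 for Qk (0.01), also below the fold minimum and thus not called, in a limma fit in which 34.6% of all genes had an adjusted p under 0.05. Over the alternatives the adjusted p for all libraries reached 0.575 for Cpeb2, 0.484 for Cpeb4, 0.559 for Qk and 0.884 for Pum2.

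Whether FLAG over WT differed between the protocols was tested directly. The difference, crosslinked minus native, was -0.45 ± 0.39 log2 units for Cpeb2 and -0.37 ± 0.27 for Cpeb4, with adjusted p between 0.970 and 0.978 for all 9 mRNAs and 0% of all genes called. The smaller crosslinked values of these mRNAs are therefore not shown to differ from the native ones.

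The paralogues were also compared with each other within each library. A constant shift of a library cancels in such a difference, and a normalization that depends on level does not, least of all for Msi1 and Msi2, which lie far apart. The difference Cpeb2 minus Cpeb3 was -0.87 and -0.55 in crosslinked FLAG against -0.91 and -0.74 in WT, and -0.43, -0.68 and 0.08 in native FLAG against -0.85, -0.94 and -1.14 in WT. Every native FLAG library was above every native WT library, and the crosslinked groups overlapped. In an exact two-sided permutation test that exchanged the labels within each protocol (120 arrangements, smallest possible p = 0.0167; same-numbered libraries of the 2 protocols were taken as independent), Cpeb2 gained 0.42 log2 units on Cpeb3 in FLAG (p = 0.0333, adjusted over 4 pairs 0.133), which did not pass the correction. Leaving out each library in turn gave gains from 0.28 to 0.52.

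The other pairs differed less. Cpeb3 minus Cpeb4 was 0.36 log2 units lower in FLAG than in WT, a difference of -0.36 (exact permutation p = 0.117, adjusted 0.233). Cpeb2 minus Cpeb4 differed by 0.06 (exact permutation p = 0.567, adjusted 0.567), and its group means, from -2.26 to -2.16, hardly moved. Cpeb2 and Cpeb4 thus kept their distance from each other in all 4 groups. Msi1 minus Msi2 differed by 0.19 (exact permutation p = 0.517, adjusted 0.567), with an SD of 0.75 among native FLAG libraries, and the sign turned to -0.04 without FLAG native replicate 1.

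**Figure D3:**
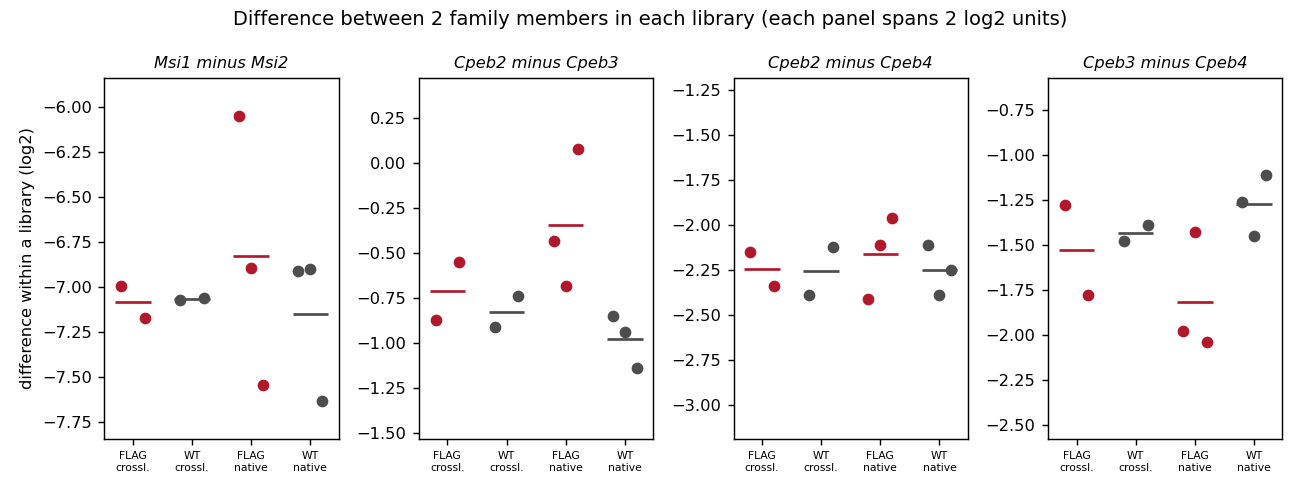
Difference in log2 value between family members within each library (y axis, log2 units; points, libraries; bars, group means; red, FLAG; grey, WT). Cpeb2 minus Cpeb3 is higher in all 3 native FLAG libraries than in native WT, and Cpeb2 minus Cpeb4 stays between group means of -2.26 and -2.16.

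No member was called between the crosslinked and the native protocol. In WT, which gives the background alone, the log2 difference of crosslinked over native libraries ran from -0.25 for Qk to 0.26 for Cpeb4, and 0 of 9 mRNAs were called (limma; 0 also at an unadjusted p under 0.05), where 0.333% of all genes were. In FLAG it ran from -0.20 for Cpeb2 to 0.35 for Elavl1, with 0 called, where 0.440% of all genes were. These shares of all genes rest on few calls, 53 in WT and 70 in FLAG, which ran from 0 to 142 and from 3 to 2648 when each library was left out, with the highest count of both without FLAG native replicate 2. Elavl1 was the single member at an unadjusted p under 0.05 there, at 0.35 ± 0.15 (limma, unadjusted p = 0.0445, adjusted p = 0.316), and 7.10% of all genes were higher at that threshold. Both crosslinked FLAG libraries of Elavl1 (5.95 and 5.82) were above the 3 native ones (5.56, 5.53 and 5.51), and in WT crosslinked values of 5.88 and 5.98 stood against 5.50, 5.89 and 5.64. Elavl1 was the 1 member with every crosslinked FLAG library above every native one, where 17.9% of all genes were, and Celf1 the 1 member with every crosslinked FLAG library below (13.5% of all genes). In WT, Pum2 and Cpeb4 had both crosslinked libraries above the 3 native ones, where 17.3% of all genes did.

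The patterns over the 10 libraries were compared by the root mean square difference of log2 values after each gene's mean was removed, where 0 is an identical pattern. Among the 9 mRNAs, Cpeb2 and Cpeb4 were nearest to each other (0.146), and Pum2 was next to Cpeb4 (0.151). Among all named genes, Elavl1 was nearest to Prkag1 (0.043) and Sugp2 (0.058), Celf1 to Ptbp3 (0.044), itself an RNA-binding protein of the polypyrimidine tract family, and Adam17 (0.053), and Pum2 to Brip1os (0.060) and Ube3a (0.063). Cpeb4 was nearest to Rmnd5a (0.085) and Atl3 (0.089), Cpeb3 to Acp1 (0.086) and Flrt2 (0.090), Qk to Miga1 (0.087) and Rps6kb1 (0.099), and Msi1 to Usp2 (0.111) and Lrrc61 (0.115). The most distant nearest genes belonged to Msi2, with Srpk2 (0.116) and Ipp (0.120), and to Cpeb2, with Fam181a (0.120) and Zfp667 (0.136). Such distances shrink for genes that vary little and follow level and depth as well as biology.

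The 9 mRNAs share long 3′ UTRs. In GENCODE M21 on GRCm38 the longest annotated 3′ UTR ran from 1895 nt for Msi1 to 7014 nt for Qk, with a median of 4102 nt beside 1261 nt over all coding genes of the matrix, and 65.4% of those genes had a shorter 3′ UTR than Msi1. These regions were searched for the MEX3 recognition element (MRE), a bipartite motif with an AG core and a T-rich part up to 8 bases on, in the form given in the methods, on the transcript strand. In the last 500 nt before the transcript end, 6 of the 9 had an MRE, a share to be read beside the 66.4% of all 9310 coding genes with such a window. Cpeb4 and Pum2 had 3 each, Msi2 and Elavl1 had 2, Celf1 and Cpeb2 had 1, and Msi1, Qk and Cpeb3 had none there. The whole annotated 3′ UTR held 33 in Qk, of which 14 lie inside the gene given in the matrix, 16 in Pum2, 15 in Celf1, 14 in Cpeb4 and 0 in Msi1. Per kb of 3′ UTR, Pum2 (5.59) and Qk (4.70) had the most, beside 2.80 over all genes, and inside the gene given in the matrix Qk had 4.45. Cpeb4 and Pum2 carry the most elements of the set near the end, and the 3 of Cpeb4, then the 3 of Pum2 and the single one of Cpeb2 are shown with the matched element in capitals, as DNA letters of the transcript strand.
Cpeb4 chr11:31935370-31935395 (+): gggaggttGTAGTATTTAttctagca
Cpeb4 chr11:31935343-31935368 (+): atttccatATAGTTTTTActgtgtat
Cpeb4 chr11:31935169-31935194 (+): aagtataaTTAGTTTTTAtaatttca
Pum2 chr12:8752363-8752388 (+): gaatccacTTAGGCTTTAattcttga
Pum2 chr12:8752240-8752267 (+): ctgttcgtGTAGAAAATTTAtgatctgc
Pum2 chr12:8752210-8752239 (+): tgatacttTTAGGCATATTCTAgaaaaaac
Cpeb2 chr5:43289550-43289573 (+): taaataatTTAGTTTAttttattg
Such a match is a run of letters, and binding at it was not measured. For Qk 3870 of the 7014 nt of annotated 3′ UTR, the last 500 nt included, lie outside the gene given in the matrix.

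The 3′ UTRs also held the sites that the regulators' own families recognize. The CPEB site TTTTAT was found in the last 500 nt of 6 of the 9 mRNAs, where 41.0% of all genes had it, with 8 matches in Cpeb2, 4 in Cpeb4, 3 in Msi1 and Msi2, and 2 in Cpeb3 and Elavl1. Over the whole 3′ UTR, Cpeb2 had 5.29 per kb and Cpeb4 2.68, beside 1.01 over all genes, and 8 of the 9 were above that value. Some of these matches overlap each other, another in Cpeb4 shares letters with the last of its MREs printed above, and the Cpeb2 site below begins directly after its MRE. The AU-rich pentamer ATTTA, the letters read by ELAV-like proteins, was found in the last 500 nt of 8 of the 9, where 59.3% of all genes had it. Elavl1 itself held 10, most of them overlapping in a run of ATTT repeats, with 4 in Cpeb4, 3 in Cpeb2 and at most 1 in each of the others. A CPEB site of Cpeb2, a CPEB site of Cpeb4 and an AU-rich stretch of Elavl1 are shown, since each belongs to the family that its own protein is known to bind.
Cpeb2 CPEB site chr5:43289558-43289579 (+): ttagtttaTTTTATtgttatct
Cpeb4 CPEB site chr11:31935410-31935431 (+): aattcattTTTTATtaaagtca
Elavl1 AU-rich pentamer chr8:4285784-4285804 (-): atttatttATTTAtttatttt
The PUM site TGTANATA and the quaking site ACTAAC were in none of the 9 windows, where 14.4% and 6.80% of all genes had them. In the whole 3′ UTR, which is longer in these mRNAs than in most genes, 6 and 8 of the 9 held them, where 28.0% and 20.2% of all genes did. Pum2 had 2 PUM sites and Qk had 2 quaking sites in its own 3′ UTR, and the first of each is shown.
Pum2 PUM site chr12:8750410-8750433 (+): tacagaatTGTATATActtataat
Qk quaking site chr17:10206542-10206563 (-): accaacctACTAACtctggact

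**Figure D4:**
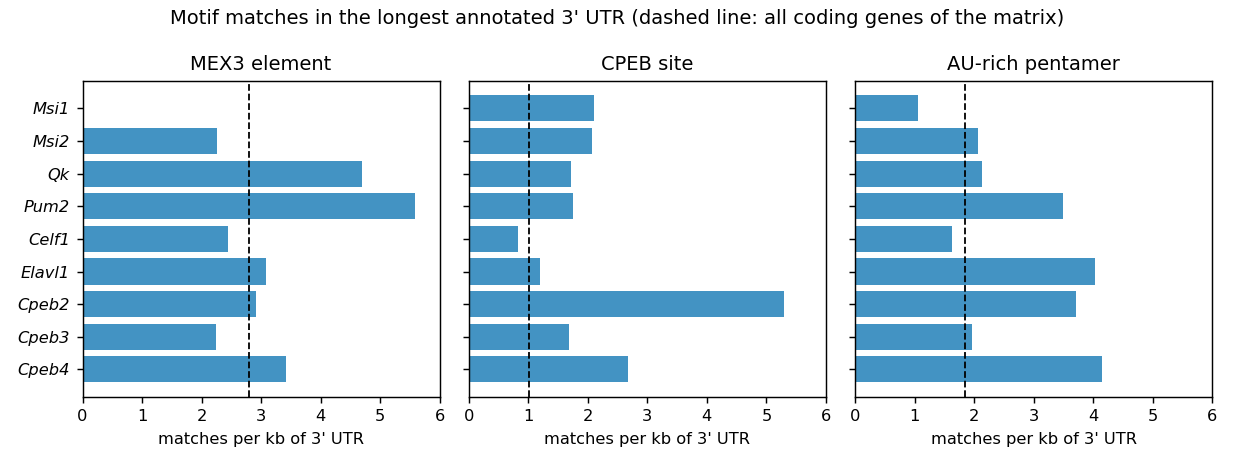
Matches per kb of the longest annotated 3′ UTR (x axis) for the MEX3 element, the CPEB site and the AU-rich pentamer in each mRNA (bars), with the density over all coding genes of the matrix as a dashed line. Pum2 and Qk have the most MEX3 elements (5.59 and 4.70 per kb), and Cpeb2 the most CPEB sites (5.29 per kb).

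The near relatives of the 9 mRNAs were taken as a further list. Of 10 paralogues, 9 were in the matrix and none was called in any comparison (limma; over all libraries 1 was higher and 2 were lower at an unadjusted p under 0.05, beside 11.2% and 9.85% of all genes), with a median log2 fold change over all libraries of 0.02. Elavl4, a neuronal ELAV-like gene, had log2 values of 3.23 and 3.07 in crosslinked FLAG against 5.18 and 3.10 in WT, and 2.56, 3.24 and 3.24 in native FLAG against 5.13, 4.30 and 5.25 in WT. It was lower in every FLAG library than in native WT, and crosslinked WT replicate 2 was at the FLAG level. Over all libraries its log2 fold change was -1.52 ± 0.37 (limma, adjusted p = 0.0929). Celf2 had 9.47 and 9.38 against 10.22 and 9.41 with crosslinking and 9.09, 9.37 and 9.27 against 10.22, 9.87 and 10.39 in native conditions, with a log2 fold change of -0.70 ± 0.18 (adjusted p = 0.0960). Celf1 itself was at 0.08, as given above. Celf4 was at 0.46 ± 0.18 (adjusted p = 0.194).

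Among 41 other RNA-binding regulators in the matrix, of 44 listed, 1 was called over all libraries and none in the crosslinked or the native libraries alone. Rbfox3, the neuronal splicing factor known as NeuN, had log2 values of 3.73 and 2.91 in crosslinked FLAG against 4.42 and 4.47 in WT, and 3.35, 3.03 and 3.08 in native FLAG against 4.46, 4.52 and 4.78 in WT. It was lower in all 5 FLAG libraries than in all 5 WT libraries, by a log2 fold change of -1.31 ± 0.17 (limma, adjusted p = 0.0127). Rbfox3 is also among the 4 mature neuron markers and weighs most in their summed level given above, so that sum is no separate observation. The other 3 were lower in FLAG over all libraries, none at an unadjusted p under 0.05. Their log2 fold changes were -0.64 for Snap25, -0.52 for Syt1 and -0.54 for Camk2a (limma, unadjusted p = 0.0726, 0.0734 and 0.109). The median of these regulators was 0.17 over all libraries, with 6 higher and 2 lower of 41 at an unadjusted p under 0.05, beside 11.2% and 9.85% of all genes.

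The mRNAs of 8 proteins that the study's text names as co-precipitated with MEX3A, a partial list that includes Qk and Elavl1, held no called gene, and their median log2 fold change over all libraries was 0.27. The 2 of 8 mRNAs at an unadjusted p under 0.05, both higher in FLAG, beside 11.2% of all genes higher, were those of the poly(A)-binding protein Pabpc1 (0.89 ± 0.28, adjusted p = 0.137) and the elongation factor Eef2 (0.84 ± 0.33, adjusted p = 0.195). Pabpc1 had log2 values of 5.11 and 5.17 in crosslinked FLAG against 4.54 and 4.46 in WT, and 6.91, 5.21 and 6.17 in native FLAG against 5.03, 5.42 and 4.65 in WT. The crosslinked groups did not overlap, and native FLAG replicate 2 lay among the WT libraries.

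Of 13 mRNAs known from textbooks as targets of the 9 regulators, 11 were in the matrix and none was called in any comparison. Over all libraries 5 of 11 were higher and 0 lower in FLAG at an unadjusted p under 0.05, beside 11.2% and 9.85% of all genes, with a median of 0.02 for the list. The largest were Fos (1.09 ± 0.39, adjusted p = 0.172) and Vegfa (1.07 ± 0.32, adjusted p = 0.129), whose mRNAs carry AU-rich elements bound by ELAVL1, and Cdkn1a (0.98 ± 0.23, adjusted p = 0.0891), a cell cycle inhibitor whose mRNA is bound by Musashi and ELAVL1. Cdkn1a had log2 values of 4.81 and 5.16 in crosslinked FLAG against 4.17 and 4.50 in WT, and 6.24, 5.27 and 5.74 in native FLAG against 4.61, 5.03 and 4.03 in WT. All FLAG libraries lay above all WT libraries of the same protocol.

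**Figure D5:**
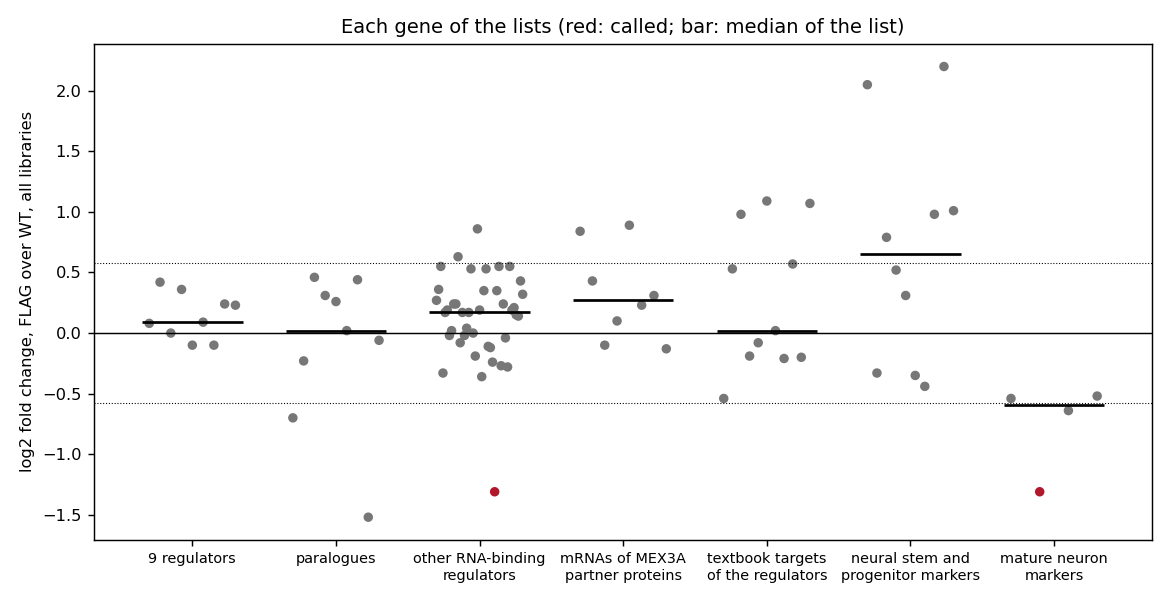
Log2 fold change of FLAG over WT across all libraries (y axis) for every gene of each list (points; red, called; bars, medians; dotted lines at 0.58 in either direction). The 9 regulators lie between -0.10 and 0.42, and Rbfox3 at -1.31, which is in both of its lists, is the single called gene.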

How the data were processed

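RIP-seq libraries (10) of FLAG and WT neurosphere cultures were analysed. The authors clipped and filtered the reads with cutadapt and Trimmomatic, mapped them to GRCm38 with HISAT2, counted them per gene with featureCounts and deposited a matrix of log2 values for 15899 genes. The methods name DESeq2 for the normalization, and the submitters' processing notes list limma. The deposited log2 values have nearly equal distributions, as after quantile normalization, and allow no count model, so the depth and counting error of each library are unknown. Whether featureCounts used the strand is not given in the sources used here. Msi2, Cpeb2, Cpeb3 and Elavl1 overlap genes on the other strand.

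The log2 values of all genes were fitted with lmFit and eBayes (mean-variance trend on) of limma 3.58.1, in R 4.3.3, within each protocol, over all libraries with the protocol as covariate, and in 1 fit of 4 groups for the protocol contrasts. Genes with a Benjamini-Hochberg adjusted p under 0.05 and a log2 fold change beyond 0.58 were called, after the study. Paralogue differences were tested by exact two-sided permutation over libraries. Motifs were searched in the longest annotated 3′ UTR of GENCODE M21, in which 15864 genes were found. Python 3.11.15 with numpy 2.4.6, pandas 2.3.3 and matplotlib 3.10.9 was used.

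The members, the lists and the tests were chosen with earlier results of these data known. All 9 members are named, of other lists the called genes or, with none called, up to 3 with the largest change over all libraries at an unadjusted p under 0.05, and for each member the 2 nearest genes without a Gm or Rik symbol. Alternatives were pseudocounts of 1 and 8, a minimum mean of 10, quantile normalization, array weights, no trend, the replicate number as a block, 1 fit of 4 groups and each library left out. A crossed pairing, a fit without both libraries with many tied values and fits with genotype and replicate number as a random block (duplicateCorrelation), and for the level per kb the exons inside the gene given in the matrix, were chosen after seeing the data.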

Additional observations from a re-analysis of the deposited data

How the results depend on the processing

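Depth could not be used to judge precision, because the deposited values carry no read counts. Of the counts of called members, only the native one changed, from 0 to 2 with array weights, and from 0 to 1 over the fits that left out each library. Signs turned in fold changes of members that were not called and in 1 paralogue difference. With array weights the log2 fold change was -0.10 for Msi1 in native libraries, 0.15 for Msi2 and -0.04 for Celf1 over all libraries, 0.08 for Msi1 in the protocol difference, and 0.06 for Msi1 and -0.08 for Pum2 in crosslinked over native FLAG. Without FLAG native replicates 1 and 3 together, which leaves 1 native FLAG library and so a value with no replicate check, it was 0.07 for Msi2, -0.10 for Pum2 and 0.09 for Cpeb3 in native libraries, 0.05 for Msi2 over all libraries, -0.04 for Msi2, 0.27 for Pum2 and -0.05 for Cpeb3 in the protocol difference, and -0.17 for Msi2, 0.02 for Cpeb2 and 0.16 for Cpeb4 in crosslinked over native FLAG. Leaving out each library in turn gave, with crosslinking, -0.03 to 0.07 for Msi1, -0.10 to 0.16 for Msi2, -0.12 to 0.42 for Cpeb2, -0.17 to 0.26 for Cpeb3, -0.0010 to 0.28 for Cpeb4, -0.08 to 0.06 for Celf1 and -0.11 to 0.02 for Elavl1. In native libraries it gave -0.09 to 0.45 for Msi1, -0.34 to 0.01 for Msi2 and -0.10 to 0.11 for Cpeb3, and over all libraries -0.04 to 0.25, -0.17 to 0.02 and -0.07 to 0.08 for the same mRNAs. In the protocol difference it gave -0.43 to 0.11 for Msi1, -0.04 to 0.22 for Qk, -0.30 to 0.04 for Pum2, -0.15 to 0.28 for Cpeb3 and -0.01 to 0.18 for Elavl1. In crosslinked over native WT it gave -0.10 to 0.01 for Msi1, -0.28 to 0.07 for Msi2, -0.02 to 0.52 for Cpeb2, -0.08 to 0.29 for Cpeb3 and -0.07 to 0.07 for Celf1, and in FLAG -0.48 to 0.05 for Msi1, -0.08 to 0.22 for Msi2, -0.13 to 0.21 for Pum2, -0.37 to 0.09 for Cpeb2, -0.05 to 0.38 for Cpeb3 and -0.25 to 0.07 for Cpeb4. The paralogue difference Msi1 minus Msi2 ran from -0.04 to 0.37. Same-numbered FLAG and WT libraries did not deviate together (correlations of -0.27 with crosslinking and -0.15 to -0.43 in native libraries). In a group of 2 libraries the deviations are opposite, so both crosslinked correlations are equal by construction. These few values cannot decide whether the numbers pair the libraries. With the replicate block 0 members were called, 14 genes in native libraries and 34 over all libraries, and Celf1 turned to 0.0044 in crosslinked over native WT. With genotype and number as a random block (consensus correlation 0.33 over all libraries), 15 genes were called over all libraries, where 79 were without it, 92 in crosslinked over native WT against 53 and 192 in FLAG against 70. Rbfox3 remained called (adjusted p = 0.0243 by limma), Cpeb4 was at 0.40 (adjusted p = 0.255), and Celf1 turned to 0.0014 in crosslinked over native WT. The crossed pairing of the crosslinked libraries called 0 genes. The counts over all genes moved far more than the members. In native libraries 17 genes became 0 without the trend, 4 in 1 fit of 4 groups, 7 with a minimum mean of 10, 9 without FLAG native replicates 1 and 3 together and 3577 with array weights, and over the fits without 1 library the count was 0 without WT replicate 1 or 3, 1 without FLAG replicate 3, 4 without FLAG replicate 1, 55 without WT replicate 2 and 3160 without FLAG replicate 2. Over all libraries 79 became 25 without the trend, 41 with a pseudocount of 8, 43 with the minimum mean, 18 without FLAG native replicates 1 and 3 together and 2069 with array weights, and leaving out any 1 library moved it by over 1.5 times, to 702 without FLAG native replicate 2, 401 without WT crosslinked replicate 2 and 13 to 51 without each of the others. With crosslinking 0 became 4 without WT crosslinked replicate 2, and in the protocol difference 0 became 1 without FLAG native replicate 2. In crosslinked over native WT 53 became 4 and 2 with pseudocounts of 1 and 8, 2 with the minimum mean, 32 without the trend, 2 with the replicate block, 86 without FLAG native replicates 1 and 3 together and 864 with array weights, and ran from 0 without WT crosslinked replicate 2 to 142 without FLAG native replicate 2. In FLAG 70 became 26 and 3 with the pseudocounts, 11 with the minimum mean, 12 with the replicate block, 0 without FLAG native replicates 1 and 3 together and 1488 with array weights, and ran from 3 without FLAG crosslinked replicate 2 or FLAG native replicate 3 to 2648 without FLAG native replicate 2. The causes were not tested. The number of members with an MRE near the 3′ end was 6 with either form of the element, but with the other form Elavl1 went from 2 to 0 and Cpeb3 from 0 to 2. Over the whole 3′ UTR it was 8, where 77.2% of all genes had one.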
